A study of Mus musculus with 8 samples.

Results

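The expression of 46 genes that mark skeletal muscle was followed in the whisker follicles of female mice of the genotype ApcMin/+, in which 1 allele of Apc is truncated. The genes were chosen by name, as known components of muscle fibres, out of 37018 genes with a probe on the array. Earlier results of these data were known when the genes were chosen. They comprise 14 genes of fast fibres, 11 of slow fibres, 6 of developing or regenerating fibres, 9 sarcomere and cytoskeleton genes that all fibres use, and 6 genes of excitation and fuel use that all fibres share. Both groups carried the ApcMin/+ genotype, and each group had 4 samples. Treated mice were given E7386, known as an inhibitor of the contact between beta-catenin and its coactivator CBP, at 30 mg/kg by mouth in 2 doses a day, and control mice were given vehicle. Dosing began at the age of 8 weeks and ran for 4 cycles, each of 5 days with and 2 days without the agent. Follicles were taken 6 h after the last dose, and each RNA was hybridised to its own 1-colour Agilent array. Nothing in the labels ties the 4 samples to different animals or to pools of animals, so a p-value here sets a difference against the spread of samples, which may be technical. The 8 arrays shared 1 slide, with row 1 used for vehicle and row 2 for E7386, so row and treatment cannot be told apart. The column on the slide was the same as the replicate number in both rows.

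Skeletal muscle is built of fibres whose sarcomeres slide thick myosin filaments over thin actin filaments. The troponin and tropomyosin on the thin filament answer to calcium, which is released from the sarcoplasmic reticulum when the fibre is excited. Fast and slow fibres use different genes for the same job, among them separate myosin heavy chains, troponins, calcium pumps and calcium buffers. The whisker pad holds small muscles that loop around the follicles and move the whiskers, so muscle tissue lies next to the tissue named on the labels.

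Every level below is log2 of the background-corrected signal minus the array's 75th percentile of that signal, so that 0 is the level of the probe at that percentile. A value compares 1 gene between arrays, and the levels of different probes are not ranked against each other. Of the 46 muscle genes, 39 were well above background on all 8 arrays. A total of 44 met the limit for a test, which was a signal well above background on 3 or more arrays within a group, and the other 2 were Tnnc1, the troponin C of slow and cardiac muscle, and Chrng, the fetal subunit of the acetylcholine receptor.

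The upstream sequences of 4 members are shown because they set a pair whose signal moved with the other muscle genes from array to array, Myh4 and Acta1, beside a pair whose signal did not, Myl3 and Tnnt1. Each is the 250 bases before the gene start in RefSeq's annotation of GRCm38.p6, written 5′ to 3′ on the gene's strand. Capitals mark CAGCTG, the E-box core bound by myogenic factors, TATAAA on either strand, and the CArG box of serum response factor. Myh4, the fast 2B myosin heavy chain, lies at chr11:67237562-67237811 on the plus strand, and Acta1, skeletal alpha-actin, at chr8:123894776-123895025 on the minus strand. Myl3, the slow and ventricular essential light chain, lies at chr9:110763428-110763677 on the plus strand, and Tnnt1, slow troponin T, at chr7:4515976-4516225 on the minus strand.
Myh4: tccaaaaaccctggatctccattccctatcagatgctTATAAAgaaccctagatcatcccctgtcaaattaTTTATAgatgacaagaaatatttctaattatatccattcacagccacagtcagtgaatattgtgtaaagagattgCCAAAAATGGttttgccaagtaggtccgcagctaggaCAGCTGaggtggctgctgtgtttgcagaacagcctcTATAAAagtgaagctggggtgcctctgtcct
Acta1: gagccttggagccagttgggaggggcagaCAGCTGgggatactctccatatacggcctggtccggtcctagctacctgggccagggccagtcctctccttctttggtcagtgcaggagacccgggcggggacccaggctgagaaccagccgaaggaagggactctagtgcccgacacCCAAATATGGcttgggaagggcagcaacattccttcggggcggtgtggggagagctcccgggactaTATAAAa
Myl3: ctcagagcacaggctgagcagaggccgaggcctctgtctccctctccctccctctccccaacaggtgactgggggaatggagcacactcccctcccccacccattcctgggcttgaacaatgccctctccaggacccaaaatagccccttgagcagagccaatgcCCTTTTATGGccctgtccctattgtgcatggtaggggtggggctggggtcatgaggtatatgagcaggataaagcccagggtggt
Tnnt1: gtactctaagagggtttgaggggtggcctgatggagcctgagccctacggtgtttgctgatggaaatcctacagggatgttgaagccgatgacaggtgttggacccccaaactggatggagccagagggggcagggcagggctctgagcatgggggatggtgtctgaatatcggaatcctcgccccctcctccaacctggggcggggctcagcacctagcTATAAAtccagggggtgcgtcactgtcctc
The motif CAGCTG starts 67 bases before the start of Myh4 and 221 bases before that of Acta1, and the stretches of Myl3 and Tnnt1 do not hold it. The 4 genes do not stand for all members. Tnni1, whose signal did not move with the rest, holds CAGCTG, and Tnnc2, whose signal did, does not. A CArG box starts 104 bases before Myh4, 73 before Acta1 and 85 before Myl3. Such matches describe the letters only and say nothing of what binds there.

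Over all members, 36 matched a promoter in the RefSeq table, and 6 motifs were searched on both strands of the 250 bases. A member with more than 1 annotated start, such as Mb or Myl2, was counted if any of its stretches held the motif. The shares over all are of single promoters, so the units differ in a way that can raise the members' counts. CAGCTG was in 18 of the 36, against 13.0% of 32851 promoters of the same length. The looser E-box CANNTG, which includes CAGCTG, was in 33 of 36 against 66.2% of all promoters. The CArG box was in 3, against 1.47% of all promoters, and the MEF2 box was in 2, Myoz2 and Ttn, against 0.508%. TATAAA was in 8, against 12.4%, and CATTCC, the core that TEAD factors bind, was in 11, against 12.6%. Among members whose signal moved with the common pattern described below, 14 of 26 held CAGCTG, and among those that did not, 3 of 8 did. The motifs were chosen with the values in view, and these shares carry no test.

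The muscle genes varied from array to array within each group far more than most genes did. Each member's deviation from its own mean was averaged over the 44 tested members to give a muscle level for each array. This muscle level was -1.59, 0.24, 0.79 and 0.85 on vehicle arrays 1 to 4 and -1.30, -0.81, 0.93 and 0.90 on E7386 arrays 1 to 4. Vehicle 1, E7386 1 and E7386 2 were thus low, the other 5 arrays were high, and both groups held low and high arrays. The span of 2.52 log2 units between the lowest and the highest array is a 5.75-fold range. In bulk tissue, fewer muscle cells and less RNA per muscle cell cannot be told apart.

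**Figure D1:**
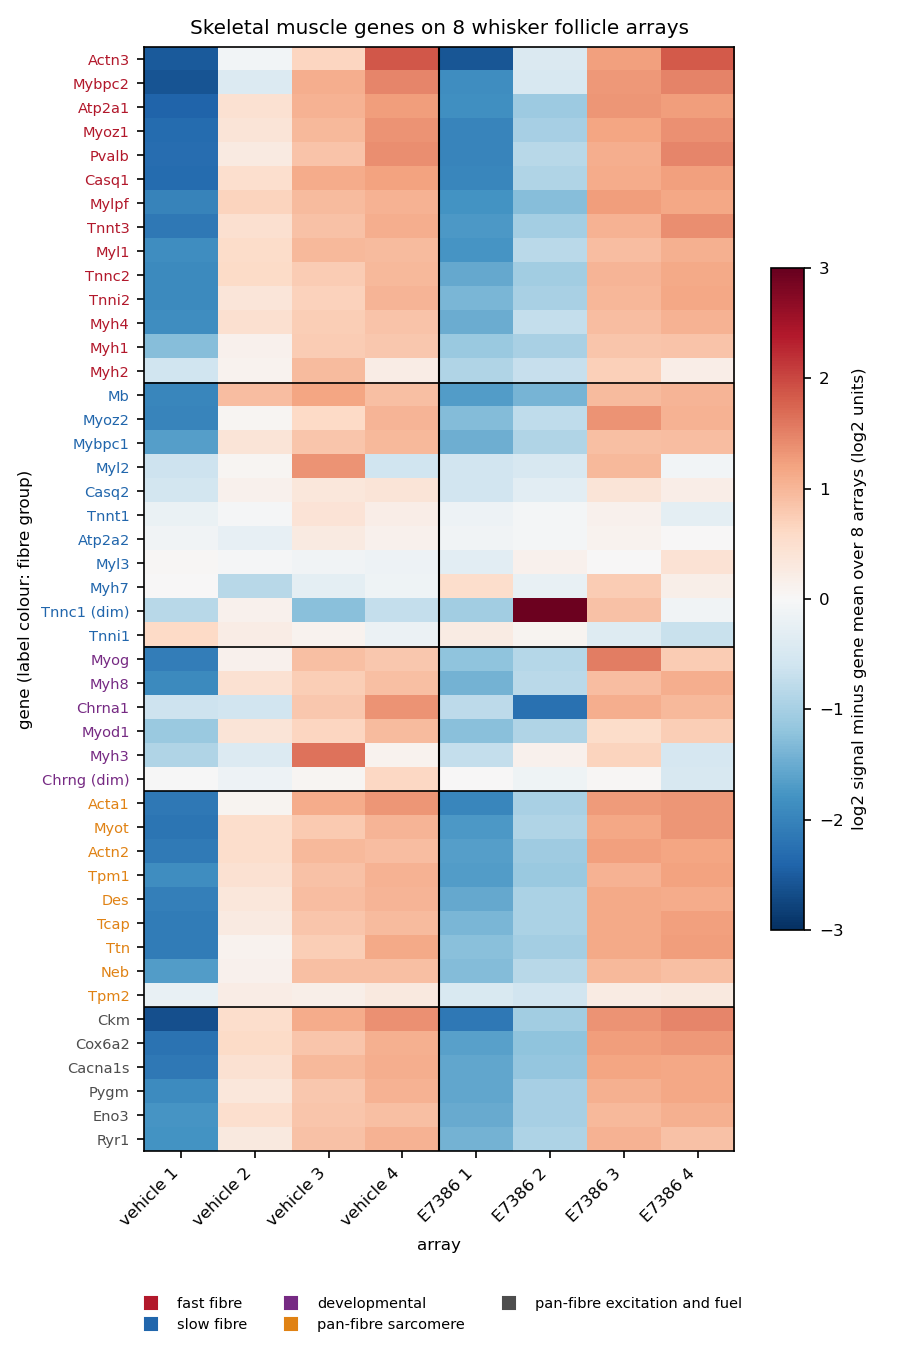
Each row is 1 of the 46 genes and each column 1 array, vehicle on the left and E7386 on the right, and the colour is the log2 signal minus the gene's mean over the 8 arrays. Most rows are blue on vehicle 1, E7386 1 and E7386 2 and red on vehicle 3, vehicle 4, E7386 3 and E7386 4, while a set of rows among the slow fibre genes stays pale; Tnnc1 and Chrng are marked as dim.

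The median standard deviation within groups was 1.35 log2 units for the 44 members, against 0.18 for all 25353 genes tested. It was 1.34 in vehicle and 1.35 in E7386 samples, so neither group was the more even. Only 0.690% of all genes tested had a spread within groups at or above the members' median. The members were chosen with earlier results of these data known, so this share only describes them. A spread of 1 log2 unit or more was found for 389 genes, 1.53% of all, and 33 of these were members while 51 came from the other muscle lists described below. In 35 members the array-to-array range was more than 2 log2 units. The scaling value, which is the 75th percentile of signal over probes, was 569, 524 and 536 on vehicle 1, E7386 1 and E7386 2, and ran from 397 to 526 on the other 5 arrays. The low arrays thus lay at the upper end of the scaling values, with overlap. The part of the scaling value in the muscle level was not tested, and scaling by the array median, by quantiles or with the authors' deposited values gave spans of 2.43, 2.54 and 2.54 log2 units.

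To describe how closely each gene followed this pattern, its values were regressed on the mean of the other tested members over the 8 arrays, giving a slope of 1 where a gene moved as much as the rest. The slope was 0.5 or more in 35 of the 44 members and under 0.5 in 9. This limit was chosen after the values were seen, with Myh2 just above it at 0.55 and Myh3 just below it at 0.45. For each of the 35, the lowest 3 arrays were vehicle 1, E7386 1 and E7386 2, and the lowest of all was vehicle 1 in 31, E7386 1 in 3 and E7386 2 in 1. Their median range was 3.32 log2 units, or 9.99-fold, and the median scatter around the fitted line was 0.16. Among the 25282 tested genes outside the list, 1.40% had a slope of 0.5 or more. The list was chosen with earlier results known, so its share beside this one is description only.

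**Figure D2:**
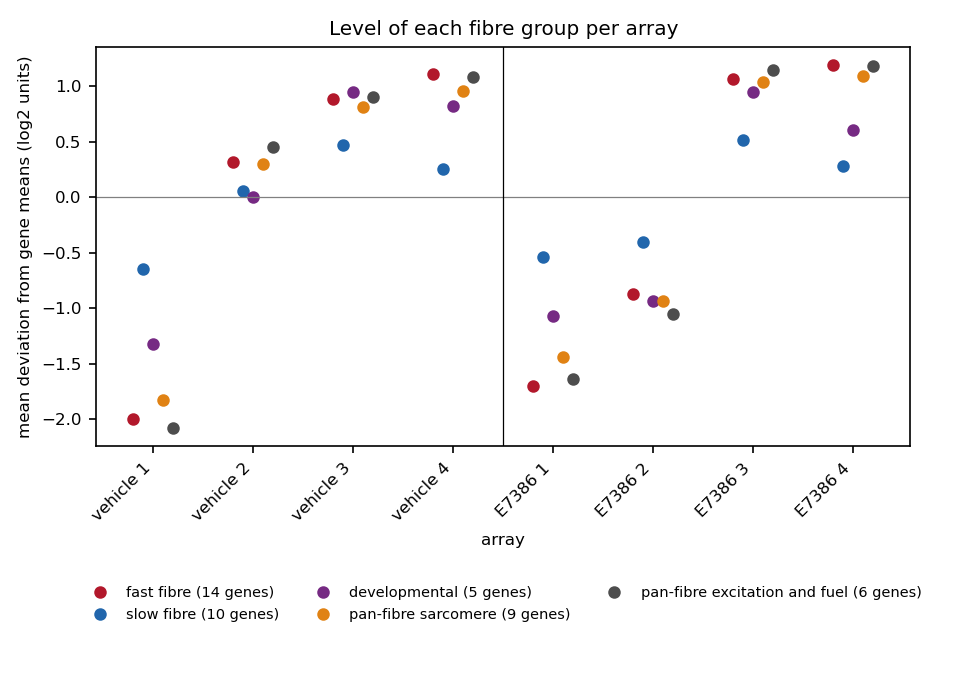
Each point is the mean deviation from the gene means, in log2 units, of the tested genes of 1 fibre group on 1 array, with vehicle arrays on the left and E7386 arrays on the right. The fast fibre, sarcomere and excitation groups span about 3 log2 units, from -2.0 to 1.19 for the fast fibre genes, and the slow fibre group spans 1.16.

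All 14 fast fibre genes followed the pattern, with slopes between 0.55 and 1.60 and a median of 1.33. Their mean level spanned 3.19 log2 units, or 9.12-fold, from -2.0 on vehicle 1 to 1.19 on E7386 4. Within the fast myosin heavy chains the size of the movement differed. Myh4, the 2B chain, read 5.38, 7.73, 7.98 and 8.09 on the vehicle arrays and 5.74, 6.53, 8.17 and 8.29 on the E7386 arrays. Myh1, the 2X chain, read 2.81, 4.21, 4.85 and 4.89 in vehicle and 2.98, 3.11, 4.93 and 4.94 in E7386 samples. Myh2, the 2A chain of oxidative fast fibres, read 0.50, 1.18, 2.03 and 1.30 and then 0.19, 0.40, 1.81 and 1.28. The same 3 arrays were low for each chain and the groups overlapped, but the range was 2.91 log2 units for Myh4, 2.14 for Myh1 and 1.84 for Myh2. The slopes were 1.10, 0.89 and 0.55, and the slope of Myh2 stayed between 0.49 and 0.66 when any 1 array was left out.

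These genes lie side by side on chromosome 11 in the order Myh3, Myh2, Myh1, Myh4, Myh8 and Myh13. Their slopes along that order were 0.45, 0.55, 0.89, 1.10 and 1.11 for the 5 that were tested, while Myh13 was not well above background on enough arrays to be tested. Myh3 was well above background on only 5 arrays, and a link between order and slope was not tested. The sequences of these genes are much alike, and cross-hybridisation between their probes was not tested, so the value of any 1 chain is uncertain.

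The fast regulatory and light chain genes moved together. Tnni2, the inhibitory subunit of fast troponin, read 4.93, 7.21, 7.53 and 7.87 in vehicle and 5.46, 5.88, 7.83 and 8.01 in E7386 samples. Tnnt3, the fast tropomyosin-binding subunit, read 2.78, 5.41, 5.81 and 6.01 and then 3.20, 3.92, 5.96 and 6.31. Tnnc2, the fast calcium-binding subunit, read 5.30, 7.76, 7.97 and 8.18 and then 5.67, 6.16, 8.21 and 8.34. All 3 subunits of fast troponin were low on the same 3 arrays, with slopes of 1.15, 1.32 and 1.19. Mylpf, the regulatory light chain of fast myosin, read -3.52, -0.84, -0.56 and -0.46 in vehicle and -3.30, -2.77, -0.26 and -0.35 in E7386 samples. Its range of 3.25 log2 units was the same kind of split, low on 3 arrays and high on 5, and the essential light chain gene Myl1 had a range of 2.93.

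Fast genes of calcium handling and the Z-disc had steep slopes as well. Atp2a1, the calcium pump SERCA1 of fast fibres, read 0.59, 3.43, 4.02 and 4.25 in vehicle and 1.15, 1.88, 4.31 and 4.24 in E7386 samples. Its slope was 1.46, and it lay close to the line, with a scatter of 0.09. Myoz1, a Z-disc protein that binds calcineurin, read -0.34, 2.36, 2.93 and 3.32 and then -0.03, 0.98, 3.16 and 3.34, with a slope of 1.45. Casq1, the calcium store of the fast reticulum, and Pvalb, the soluble calcium buffer parvalbumin, each had a slope of 1.41 and ranges of 3.54 and 3.76 log2 units.

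A pair of fast genes moved strongly but with more scatter. Actn3, the Z-disc alpha-actinin of fast fibres, read -2.71, -0.28, 0.45 and 1.66 in vehicle and -2.76, -0.64, 1.04 and 1.65 in E7386 samples. Its slope of 1.60 and its range of 4.42 log2 units came with a scatter of 0.60, since vehicle 4 lay 0.54 and E7386 2 lay 0.87 above its line while vehicle 3 lay 0.62 below. Mybpc2, the fast myosin-binding protein C, read -2.73, -0.54, 0.96 and 1.32 and then -2.0, -0.62, 1.16 and 1.34. It had a slope of 1.46 and a scatter of 0.47, with vehicle 2 at 0.77 below and E7386 2 at 0.71 above its line.

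The slow fibre genes divided. Of the 10 that were tested, 3 followed the common pattern and 7 had slopes under 0.5. The 3 were Mb, the oxygen store myoglobin, Myoz2, the slow and cardiac relative of Myoz1, and Mybpc1, the slow myosin-binding protein C, with slopes of 1.28, 1.13 and 1.07. Mb read 1.72, 4.61, 4.87 and 4.58 in vehicle and 2.01, 2.28, 4.63 and 4.70 in E7386 samples. Myoz2 and Mybpc1 had ranges of 3.32 and 2.64 log2 units, both lowest on vehicle 1.

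Tnni1, the inhibitory subunit of slow troponin, had the smallest slope of all members at -0.28. It read 0.14, -0.24, -0.34 and -0.64 in vehicle and -0.21, -0.37, -0.84 and -1.12 in E7386 samples. Vehicle 1, where 33 other tested members were lowest, was the highest array for Tnni1, and the slope stayed between -0.32 and -0.22 when any 1 array was left out. Within each array the difference between Tnni1 and Tnni2, centred on its mean, went from 2.50 on vehicle 1 to -1.84 on E7386 4, a span of 4.33 log2 units. The 2 inhibitory subunits thus changed unequally between arrays.

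Tnnt1 was nearly flat. Its levels were 1.20, 1.35, 1.81 and 1.59 in vehicle and 1.23, 1.33, 1.54 and 1.11 in E7386 samples, with a slope of 0.11 and a range of 0.70 log2 units. The centred difference between Tnnt1 and Tnnt3 spanned 3.62 log2 units, highest on vehicle 1 and lowest on E7386 4. Atp2a2, the calcium pump SERCA2 that slow fibres, heart and many other cells use, read 0.79, 0.63, 1.16 and 1.02 and then 0.79, 0.84, 1.00 and 0.90. Its range of 0.52 log2 units was the smallest among the tested members, and its second probe had a slope of 0.01.

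Myh7, the slow and cardiac beta-myosin heavy chain, also had a slope under 0.5. It read -3.95, -4.80, -4.24 and -4.09 in vehicle and -3.43, -4.19, -3.21 and -3.78 in E7386 samples, with a slope of -0.03 and a scatter of 0.54. The groups overlapped by E7386 2. Myl3 read -3.74, -3.82, -3.89 and -3.93 in vehicle and -4.09, -3.65, -3.78 and -3.34 in E7386 samples, with a slope of 0.05. Myh7 and Myl3 were well above background on all 8 arrays, though not far above the lowest such signals. Those ran from -5.60 on vehicle 1 to -5.015 on E7386 3, which limits what a flat slope shows here. Myl2, the slow regulatory light chain, was well above background on 5 of the 8 arrays and read -5.30, -4.61, -3.31 and -5.26 and then -5.24, -5.15, -3.70 and -4.75. It was highest on vehicle 3 and E7386 3, and its slope of 0.43 ranged from 0.31 to 0.57 on leaving out an array.

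Casq2, the slow and cardiac calsequestrin, moved with the pattern at a reduced size. Its slope was 0.38 with a scatter of 0.08, and its range was 0.97 log2 units. Tnnc1 was well above background on no vehicle array and on 2 E7386 arrays, and read -6.57, -5.60, -7.00 and -6.44 in vehicle and -6.78, -2.81, -4.85 and -5.84 in E7386 samples. Its mean over all 4 E7386 arrays was 1.30-fold the mean lowest signal well above background on the vehicle arrays, which was not tested. The E7386 mean includes readings not well above background on E7386 1 and E7386 4, so this ratio is not a strict lower bound. It rests on E7386 2 alone, since without that array the E7386 mean of -5.82 lay below the vehicle limit of -5.45.

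**Figure D3:**
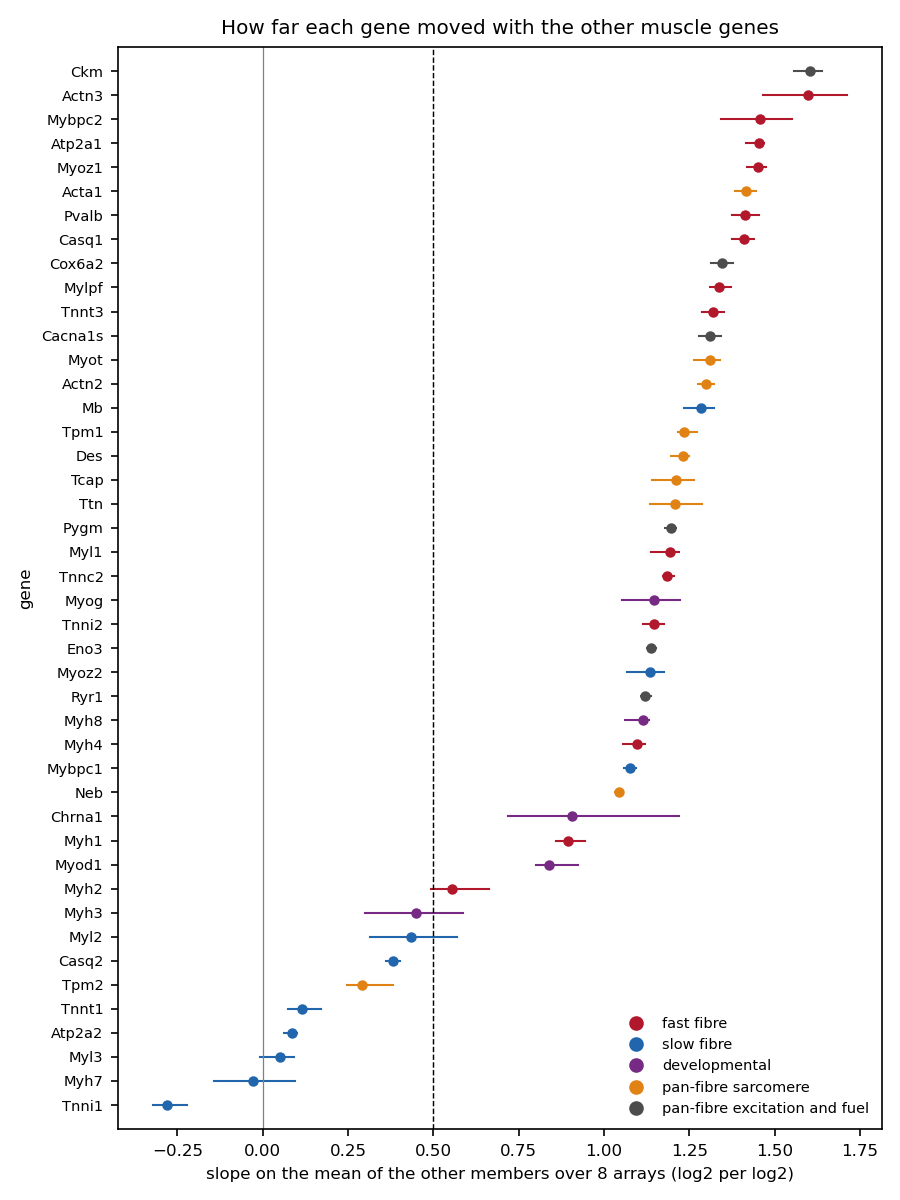
Each point is the slope of 1 tested gene on the mean of the other tested members over 8 arrays, and each bar runs from the lowest to the highest slope when 1 array is left out, with colours for the fibre groups. The dashed line is at 0.5; 9 genes lie below it, 7 of them slow fibre genes, from Tnni1 at -0.28 up to Myh3 at 0.45.

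The genes of developing and regenerating fibres were mostly dim. Myh8, the perinatal myosin heavy chain, was the exception and was well above background on all arrays. It read 5.54, 7.91, 8.19 and 8.36 in vehicle and 6.03, 6.65, 8.38 and 8.53 in E7386 samples, an array order close to that of Myh4. Both of its probes followed the pattern, with slopes of 1.11 and 1.35. They differed widely in level, since the second probe read from -2.72 on vehicle 1 to 0.70 on E7386 4. The caution on alike myosin sequences holds for Myh8 too, so how strongly it was expressed is uncertain. Myh3, the embryonic chain, was well above background on 5 arrays and read -5.55, -5.06, -3.03 and -4.56 and then -5.38, -4.53, -3.99 and -5.16. It stood highest on vehicle 3, 1.28 log2 units above its line, and its scatter of 0.73 exceeded that of every tested member but Chrna1.

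Myog and Myod1, transcription factors that switch on the muscle programme, were each well above background on 5 arrays, with slopes of 1.15 and 0.84. Both lay below -5 on vehicle 1, E7386 1 and E7386 2, where Myog read -6.40, -5.53 and -5.18. The lowest signals well above background on these arrays were -5.60, -5.13 and -5.02, so the low values that set these slopes lie under that limit. With normexp background correction the slopes of Myog and Myod1 were 0.39 and 0.26, and that of Chrna1 was 0.39, so the 3 genes then fell short of 0.5. Chrna1, the alpha subunit of the muscle acetylcholine receptor, was well above background on 6 arrays and had a slope of 0.91 and the largest scatter at 0.85, with a low value of -6.33 on E7386 2. A second probe for Chrna1 was not well above background on any of the 8 arrays. Chrng was well above background on 1 vehicle array and no E7386 array, and no fold is given for it.

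Of the 9 sarcomere and cytoskeleton genes that all fibres use, 8 followed the pattern, with slopes from 1.04 to 1.42. Acta1 was the steepest and read 2.16, 4.38, 5.42 and 5.62 in vehicle and 2.35, 3.33, 5.59 and 5.63 in E7386 samples. Neb, the giant ruler of the thin filament, and Des, the muscle intermediate filament desmin, lay close to their lines. Ttn, the spring protein titin, was read by 4 probes with slopes from 0.83 to 1.21. Actn2, Tcap and Myot, proteins of the Z-disc, had ranges of 3.34, 3.33 and 3.51 log2 units.

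The exception was Tpm2, the beta-tropomyosin, whose slope was 0.29 and whose 2 probes gave ranges of 0.87 and 0.88 log2 units. Tpm1, the alpha-tropomyosin, split by probe. The array carries 5 probes for it, annotated to 4 RefSeq transcripts of this alternatively spliced gene. The probe used for Tpm1 read 3.67, 5.99, 6.41 and 6.56 in vehicle and 3.85, 4.41, 6.57 and 6.74 in E7386 samples, and a second probe for the same transcript had a range of 2.99 log2 units. These had slopes of 1.24 and 1.19. The other 3 probes, annotated to the other transcripts, had slopes of -0.08, -0.10 and -0.04 and ranges of 0.55, 0.73 and 0.43 log2 units. The call that Tpm1 followed the muscle pattern therefore holds for 2 of its 5 probes. Which transcripts each probe reads was not tested, so the split is not shown to be between transcripts.

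**Figure D4:**
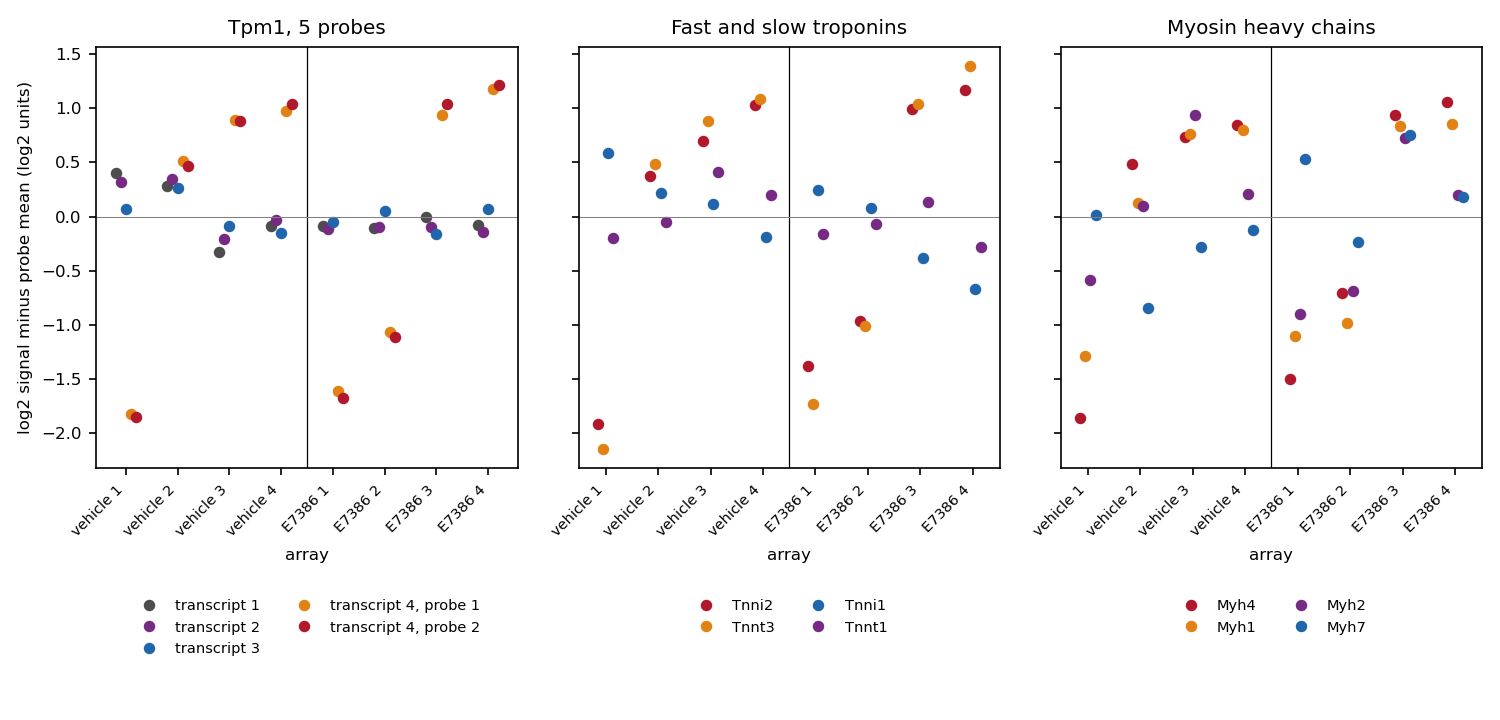
Each point is the log2 signal of a probe on 1 array minus that probe's mean over the 8 arrays, for the 5 Tpm1 probes on the left, for fast troponins Tnni2 and Tnnt3 beside slow troponins Tnni1 and Tnnt1 in the middle, and for 4 myosin heavy chains on the right. The 2 probes annotated to Tpm1 transcript 4 span about 3 log2 units and the other Tpm1 probes stay within 0.73. Tnni1 is highest on vehicle 1, where Tnni2 and Tnnt3 are lowest.

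All 6 genes of excitation and fuel use followed the pattern, with slopes from 1.12 to 1.60 and a mean level that spanned 3.26 log2 units. Ckm, the muscle creatine kinase that buffers ATP, had the steepest slope of all members at 1.60. It read 0.16, 3.34, 3.92 and 4.17 in vehicle and 0.66, 1.77, 4.15 and 4.28 in E7386 samples, a 17.4-fold range. Cox6a2, the muscle subunit of cytochrome oxidase, Eno3, muscle enolase, and Pygm, muscle glycogen phosphorylase, had ranges of 3.52, 2.84 and 3.05 log2 units. Ryr1, the calcium release channel, and Cacna1s, the voltage sensor that opens it, had ranges of 2.84 and 3.33.

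E7386 and vehicle samples were then compared for each member. None of the 44 tested members passed limma's test at a Benjamini-Hochberg adjusted p of 0.05 over all genes, where 1.12% of all 25353 genes were called, 0.753% as higher and 0.367% as lower with E7386. At an unadjusted p under 0.05 there was 1 member, Myh7, against 15.2% of all genes. The mean was lower with E7386 in 36 members and higher in 8, with a median log2 change of -0.16, against 0.01 for all genes tested. The groups of arrays overlapped in all 44, whereas they did not overlap for 10.5% of all genes. No member was called in any of the 22 other settings tried.

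The errors were wide. The median standard error of a member's change was 0.83 log2 units, against 0.13 for all genes. For Myh4 the change was -0.11, with a 95% interval from -1.89 to 1.68, so that a change between 0.27-fold and 3.19-fold lies within the interval. Ckm gave -0.19, from -2.75 to 2.38, and Mb the lowest change of all members, -0.54, from -2.61 to 1.53. These intervals leave room for large changes in either direction in this fit, and the adjusted p-values of limma ran from 0.30 to 0.99. Within the 4 slide columns the muscle level differed between E7386 and vehicle by 0.29, -1.05, 0.15 and 0.05. With the slide column, which is also the replicate number, as a block, the standard error was 0.29 for Myh4 and 0.37 for Ckm, against 0.77 and 1.11 without it, and no member was called. The sign of the members' median followed single arrays: it was -0.80 without vehicle 1, and -0.52 and -0.53 without E7386 3 and E7386 4. It was 0.32 without E7386 1, and 0.12, 0.14 and 0.12 without vehicle 3, vehicle 4 and E7386 2.

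The narrowest intervals belonged to genes that left the pattern, but not all of those genes had them. The SE was 0.51 for Myl2 and 0.55 for Myh3, against 0.43 for Myh2, which followed the pattern. Myh7 was 0.62 log2 units higher with E7386 (SE 0.25, adjusted p = 0.30 by limma), a 95% interval from 0.04 to 1.20. With normexp background correction its change was 0.31 (SE 0.10, adjusted p = 0.19 by limma). For Tnni1 the change was -0.37 (SE 0.23, adjusted p = 0.51 by limma), from -0.91 to 0.17. Atp2a2 had a change of -0.02, from -0.30 to 0.26, Tnnt1 of -0.19, from -0.53 to 0.16, and Myl3 of 0.13, from -0.21 to 0.48. None of these passed the test.

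**Figure D5:**
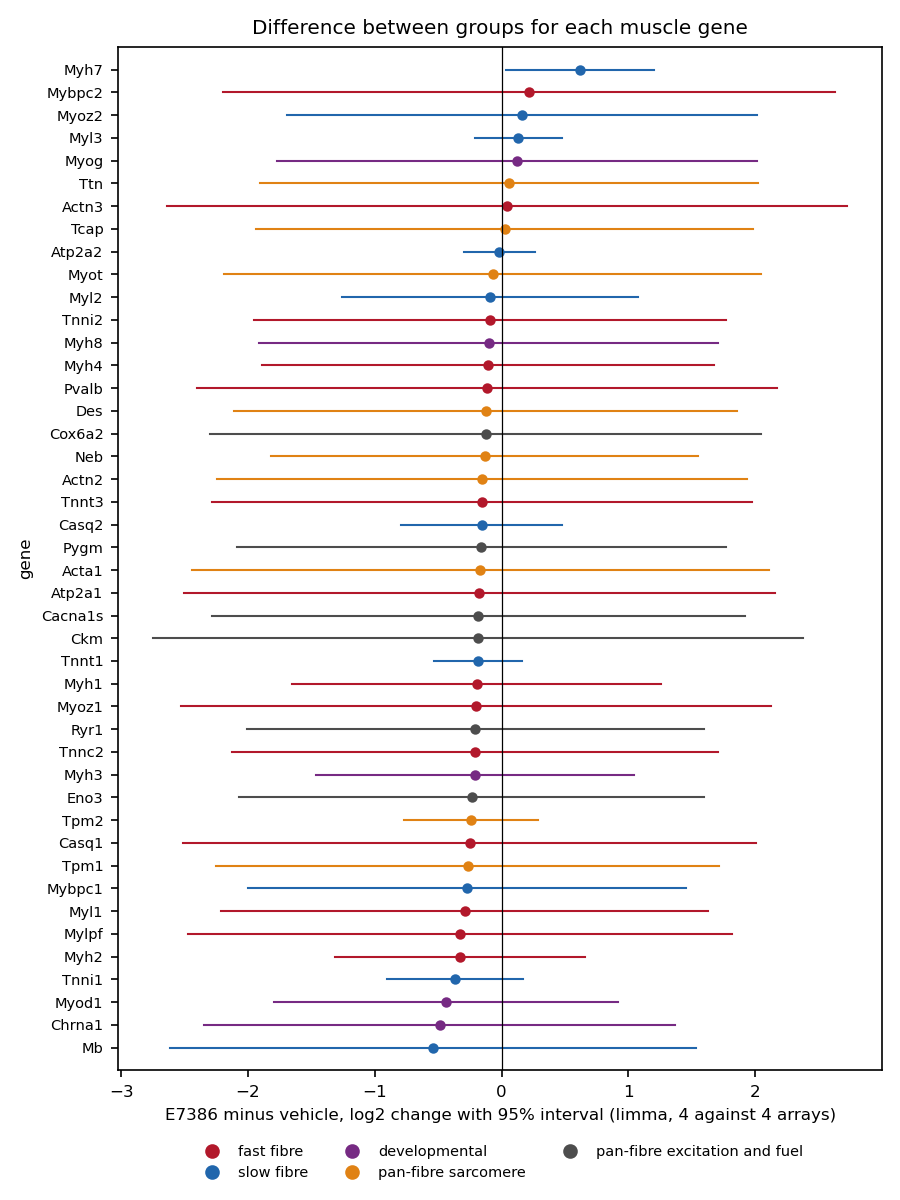
Each point is the log2 change of 1 gene, E7386 minus vehicle, with its 95% interval from limma over 4 against 4 arrays, coloured by fibre group. The points lie between -0.54 for Mb and 0.62 for Myh7; the intervals of most genes run past 1.5 log2 units on both sides, and those of Atp2a2, Myl3 and Tnnt1 are narrow.

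With the muscle level of each array as a covariate, the median standard error of the members was 0.11 and no member was called, against 2.28% of all genes. The covariate was built from the members themselves, so their own values in that fit are not independent of it. Their median change was 0.0046, and 4 members had an unadjusted p under 0.05. The share of all genes at that limit was not counted in this fit, so nothing is read from the number. The 4 were Tnni1 at -0.41, Myod1 at -0.32, Myoz2 at 0.32 and Tcap at 0.20, with adjusted p-values by limma of 0.09, 0.12, 0.14 and 0.22.

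Lists of other muscle genes were set beside the members. Over 8 lists with 130 tested genes, 74 had a slope of 0.5 or more. None was called by limma with E7386, against 1.12% of all genes, and 10 had an unadjusted p under 0.05, against 15.2%. Among other sarcomere and Z-disc genes, 24 of 28 followed the pattern, as did 14 of 16 genes of the triad, where excitation meets the calcium store, and 15 of 21 genes of muscle fuel use. The share was lower for sarcolemma genes, 8 of 16, and myogenic factors and satellite cell genes, 7 of 16, and lowest for genes of the neuromuscular junction, 2 of 10, isoforms of heart, jaw and eye muscle, 2 of 11, and genes of muscle atrophy, 2 of 12. The pair among the heart, jaw and eye isoforms was Actc1, cardiac actin, at 1.44 and Mybph, a myosin-binding protein, at 1.43. Myf5, a myogenic factor of satellite cells, did not rise well above background on any of the 8 arrays.

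The 10 named genes outside the list whose values were most like the common pattern were Myom1, Srl, Smtnl1, Pfkm, Pde4dip, Cox8b, Rtn2, Cmya5, Eef1a2 and Ldb3. Among them Myom1 binds filaments at the M-band, Srl holds calcium in the reticulum, Pfkm is the muscle phosphofructokinase, Cox8b a muscle subunit of cytochrome oxidase and Ldb3 a Z-disc protein. Their Pearson correlation with the muscle level over the 8 arrays was between 0.998 and 0.9995, and between 0.994 and 0.999 without the 2 arrays farthest from the median. The points share their arrays and scaling, and the arrays fall into a low and a high set, so these values only describe likeness. In all, 209 genes outside the list had a correlation of at least 0.95 together with a slope of 0.5 or more, limits chosen after the values were seen, and 175 of them had a name.

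The atrophy list was unlike the rest in its comparison of groups. Of its 12 tested genes, 11 had a higher mean with E7386 and 6 had an unadjusted p under 0.05, against 15.2% of all genes, but none was called. Fbxo32, the ubiquitin ligase atrogin-1, read 0.31, 0.41, 0.35 and 0.21 in vehicle and 0.90, 0.97, 1.63 and 1.72 in E7386 samples. All E7386 arrays lay above all vehicle arrays, and the difference was 0.99 (SE 0.20, adjusted p = 0.065 by limma). Groups that do not overlap, in either direction, were found for 10.5% of all genes. Pdk4, the kinase that turns off pyruvate dehydrogenase, read -0.94, -0.48, 0.38 and 1.21 and then 1.90, 1.49, 3.91 and 4.21. Its groups did not overlap either, and the difference was 2.83 (SE 0.72, adjusted p = 0.12 by limma). Mt2, a metallothionein, was 0.71 higher without overlap (SE 0.16, adjusted p = 0.093 by limma), and Bnip3, a mitophagy gene, was 0.54 higher with overlap (adjusted p = 0.20 by limma). These genes are also used outside muscle, and only Pdk4 and Trim63 of the list had slopes over 0.5.

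With the muscle level as a covariate, 6 of the 130 other muscle genes were called by limma, against 2.28% of all genes. In that fit Pdk4 was higher with E7386 by 2.96 (adjusted p = 0.015 by limma) and Fbxo32 by 1.01 (adjusted p = 0.031). Trim63, the ubiquitin ligase MuRF1, was higher by 1.10 (adjusted p = 0.025), and Ppargc1a, a coactivator of mitochondrial genes, by 1.64 (adjusted p = 0.020). Trim63 read -2.40, -0.17, 0.17 and 0.26 in vehicle and -1.10, -0.84, 1.59 and 1.90 in E7386 samples. The groups overlapped, but on the high arrays the E7386 values were above the vehicle ones. The low arrays held only 1 vehicle array, vehicle 1, and E7386 1 and E7386 2 read above it. Its muscle level was also lower, at -1.59 against -1.30 and -0.81, and Trim63 had a slope of 1.19. That gap among the low arrays was not adjusted for the muscle level. Ppargc1a read -1.53, -0.43, -0.41 and -0.25 and then -0.09, -0.15, 2.01 and 1.75, without overlap, as was found for 10.5% of all genes. Lower in that fit were Jph2, which joins the reticulum to the surface membrane, with a change of -0.49 (adjusted p = 0.038), and Lmod3, which seeds thin filaments, with -0.61 (adjusted p = 0.034). In the fit without the covariate none of these 6 passed, and Sln, an inhibitor of the calcium pump that had a difference of -0.83 there, passed in neither. Jph2 was well above background on 4 vehicle and 3 E7386 arrays, so it lay near background, which limits its call. Without the covariate its change was -0.59, and it shrank to -0.16 with normexp background correction.

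Markers of other tissues were checked for the same array pattern. Of 91 tested markers of smooth muscle, fat, Schwann cells, endothelium, fibroblasts, hair shaft, keratinocytes, dermal papilla and macrophages, 6 had a slope of 0.5 or more, and all 6 were among the 12 adipocyte genes. The adipocyte level was -1.29, -0.03, 0.20 and 0.09 in vehicle and 0.33, -0.64, 0.91 and 0.42 in E7386 samples. It was low on vehicle 1 and E7386 2 as the muscle level was, but not on E7386 1, and its part in the muscle values was not tested. All 10 keratinocyte markers met the limit for a test, and their level spanned only 0.24 log2 units. Their mean signal lay between 6.45 and 6.68 on the 8 arrays, so keratinocytes were read on each. These markers are not particular to follicles, so they do not show how much follicle each sample held. The hair shaft level spanned 1.55 log2 units, lowest on vehicle 3 and vehicle 4, and its part was not tested either.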

How the data were processed

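Total RNA, 50 ng per sample, was labelled with Cy3 and hybridised to 8 arrays, per the labels' protocols. The deposited scanner files hold spot intensities made by the authors with Agilent Feature Extraction 11 (per the submitters' processing notes; 11.5.1.1 per the file headers), and the processed signal is background-corrected there. The authors' deposited value table holds quantile-normalised log2 values of the same arrays and served as an alternative. Between 61.5% and 64.7% of mouse spots were well above background, which with the number of arrays limits the precision.

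Here log2 processed signals were scaled by each array's 75th percentile over 55681 probes. Accessions were matched to RefSeq symbols (27509 of 29150), and the probe with the highest mean stood for its gene. Genes well above background on 3 of 4 arrays of a group were tested with limma 3.58.1 in R 4.3.3, after a check on simulated data, with Benjamini-Hochberg adjustment at 0.05. Replicate number and slide column coincide. Same-numbered arrays deviated together in 3 of 4 pairs, as some pairs of unlike number did. This fell short of the rule for pairing, so the block was kept as an alternative.

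The members and lists were chosen with earlier results of these data known. All 46 members were accounted for, with arrays given for myosin, troponin, light chain and pump genes fixed by name and for the 5 smallest and 5 steepest slopes. Outside them, genes were named by p within a list, the called genes, and the 10 highest correlations. The slope, correlation and spread limits, the motifs, Acta1, Trim63, Actc1, Mybph and Myf5 were chosen after values were seen. The array was designed on mm9, and no position of a probe is given.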

Additional observations from a re-analysis of the deposited data

Results flagged for a closer look

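Among 118 groups of 4 arrays checked with Dixon's test for a sample far from the other 3, 12 stood out, where chance gives about 1 in 20. In 10 muscle genes vehicle 1 lay far below the other vehicle arrays: Myh4 at 5.38, Myl1 at 4.12, Mylpf at -3.52, Tnnc2 at 5.30, Mb at 1.72, Myh8 at 5.54, Actn2 at -1.45, Myot at 0.21, Cox6a2 at 3.22 and Eno3 at 3.60. These genes follow 1 common pattern, so they do not count as 10 separate cases. The adipocyte list was also far lower on vehicle 1, at -1.29. The fibroblast list lay higher on E7386 2, at 0.033, than on the other E7386 arrays.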

How the results depend on the processing

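No member was called in any of the 22 other settings, each array left out included. The median change of the members ran from -0.80 to 0.32 when 1 array was left out. With 1 array left out, the change ran from -0.75 to 0.37 for Myh4, from -0.66 to 0.14 for Myh1, from -0.74 to 0.35 for Tnni2 and from -1.10 to 0.50 for Ckm. Array weights turned the changes of Myh4, Tnni2 and Ckm to 0.029, 0.040 and 0.017, and the muscle level as a covariate to 0.047, 0.069 and 0.038, where the median of the members was 0.0046. Without vehicle 1, E7386 1 and E7386 2, which were left out for the members' own values, so that nothing is read from it for them, Myh4, Myh1, Myh2, Tnni2 and Ckm gave 0.30, 0.28, 0.045, 0.38 and 0.40. All of these stayed short of the threshold, and the cause was not tested.

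Of the 130 other muscle genes, none was called in the chosen fit, and 0 to 1 with 1 array left out. The covariate gave 6 calls and the fit without those 3 arrays 2, Fbxo32 and Ppargc1a. There was 1 call each with normexp and with the trend and robust options (Fbxo32), with quantiles and the authors' values (Mt2), and with the replicate block (Pdk4). The replicate numbers gave correlations of 0.49, -0.17, 0.29 and 0.18 between same-numbered arrays. Between vehicle and E7386 arrays of unlike number, correlations ran from -0.49 to 0.38. With the replicate numbers as a block, 59 genes were called in all, against 284, with 0 members. The replicate numbers are also the columns of the slide, and position and replicate number cannot be told apart.

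Normexp on the mean signals was not run, since the median signals had to be used, a choice made after seeing the files, as were the settings without outlier spots of the population kind and without 3 arrays. Under it 12 members had a slope under 0.5, Myog, Myod1 and Chrna1 being added, against 9, and 7 to 10 with 1 array left out. Myl2, Myh3, Myog, Myod1 and Chrna1 were near background on some arrays, which limits their slopes. Myh7 and Myl3 were well above background on all 8 arrays but dim, which limits their slopes too.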
